A study of Mus musculus with 9 samples.

Results

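Retinoic acid is the active form of vitamin A, and 9 mouse genes that make it, bind it, break it down, sense it or respond to it are described here: Rdh10, Aldh1a1, Aldh1a2, Crabp1, Cyp26a1, Cyp26b1, Rara, Rarg and Stra8. They were taken by gene symbol, and all 9 had a single array row of their own among the 19935 genes measured. Whole testis of untreated male Swiss albino mice, from an inbred line, was profiled at 8, 16 and 24 days of age, with 3 arrays per age that the design text calls biological replicates. The labels used here do not say how many animals an array stands for. The design text names the comparisons of 16 with 8 days, 24 with 16 days and 24 with 8 days, in the first wave of sperm production, in which the germ cells pass their stages in step.

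Retinol from the blood is oxidised to retinal by retinol dehydrogenases such as RDH10, and retinal to retinoic acid by retinal dehydrogenases of the ALDH1A family. CRABP1 binds retinoic acid in the cytoplasm, and the CYP26 enzymes oxidise it for removal. Retinoic acid acts through nuclear receptors, RARs paired with RXRs, that sit on direct repeats of a short hexamer near target genes. In the testis it drives spermatogonia to differentiate and germ cells to enter meiosis, and Stra8 is the germ cell gene best known to be induced by it.

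The receptors' hexamer was looked for upstream of the members, and 2 windows are shown, Cyp26a1 because it holds a direct repeat and Stra8 because it is the response gene of the set. Each is the 250 bases before the start site in RefSeq's GRCm38.p6, read 5′ to 3′ on the strand of the gene, with every hexamer in capitals. Cyp26a1 lies at chr19:37697558-37697807 and Stra8 at chr6:34920698-34920947, both on the plus strand.
Cyp26a1: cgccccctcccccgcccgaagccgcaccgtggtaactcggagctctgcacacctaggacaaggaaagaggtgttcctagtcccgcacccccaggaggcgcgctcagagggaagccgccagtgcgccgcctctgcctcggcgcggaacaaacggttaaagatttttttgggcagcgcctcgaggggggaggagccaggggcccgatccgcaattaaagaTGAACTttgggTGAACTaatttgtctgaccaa
Stra8: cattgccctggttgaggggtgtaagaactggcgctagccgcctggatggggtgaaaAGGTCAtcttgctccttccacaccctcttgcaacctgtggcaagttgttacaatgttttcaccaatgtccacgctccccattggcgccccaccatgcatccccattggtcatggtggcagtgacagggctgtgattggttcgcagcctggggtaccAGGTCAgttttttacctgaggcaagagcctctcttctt

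The hexamer was searched on both strands in 4 spellings. These were AGGTCA itself, the variant AGTTCA, and the same pair with a first G, namely GGGTCA as well as GGTTCA. Overlapping matches were allowed. In Cyp26a1, which encodes a retinoic acid hydroxylase and is a textbook target of retinoic acid, the opposite strand reads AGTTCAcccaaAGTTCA from position -32 to -16 before the start site. This is a direct repeat with a spacer of 5 bases, a form held by 29 of 32817 windows of this length in the RefSeq table (0.0884%). Spacers of 1 and 2 bases (0.165% and 0.174% of windows) were also searched in all 13 windows of the members, without a match. Stra8 held AGGTCA at -194 and at -38 on its own strand. At least 2 copies of AGGTCA on the gene's strand, a count chosen after this window had been seen, occurred in 0.414% of windows. Of the 8 members with a window in the table, 5 held at least 1 hexamer, in 5 of 13 windows, a share close to the 38.6% of all windows that did. The others with a match were 1 of 4 windows of Rara, which held 4, 1 of 2 of Rarg and 1 of 2 of Aldh1a1, while those of Aldh1a2, Crabp1 and Cyp26b1 held none. A match describes letters and was not tested for binding.

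All values are log2 values relative to the median of the row over the 9 arrays, so 0 is the median array, and they hold differences between ages but no level of expression. The replicate number is the one in the array's title, and the unnumbered array of each age is called replicate 3. A gene is said to have risen or fallen where limma gave an adjusted p under 0.05 over all 19935 genes. In whole testis, fewer cells of a type and less RNA per cell cannot be told apart. Changes are differences of age means with limma's standard error, from 3 arrays per age.

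Between 8 and 24 days, 7 of the 9 genes fell and 1, Aldh1a2, rose, while Cyp26a1 was not called. Over all genes 35.2% fell and 19.2% rose in that comparison, 54.4% together. The members' median change was -0.94, against -0.18 for all genes. From 8 to 16 days 5 of the 9 fell and 1 rose (all genes 14.3% and 10.4%, 24.7% together), with a median of -0.36 against -0.02. From 16 to 24 days 5 of the 9 fell (all genes 20.1%, or 33.3% in either direction) and 0 rose by limma (all genes 13.2%), with a median of -0.40 against -0.16. At an unadjusted p under 0.05, 1 member rose and 7 fell from 16 to 24 days (all genes 15.5% and 30.4%). The comparisons share arrays, so that their counts are not independent of each other.

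The arrays of 8 and 16 days did not overlap for 6 members (36.2% of all genes), 5 of them lower at 16 days (21.5%). Those of 16 and 24 days did not overlap for 8 members (55.6%), 7 of them lower at 24 days (39.1%). Those of 8 and 24 days did not overlap for 8 members (65.5%), 7 of them lower at 24 days (45.0%).

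**Figure D1:**
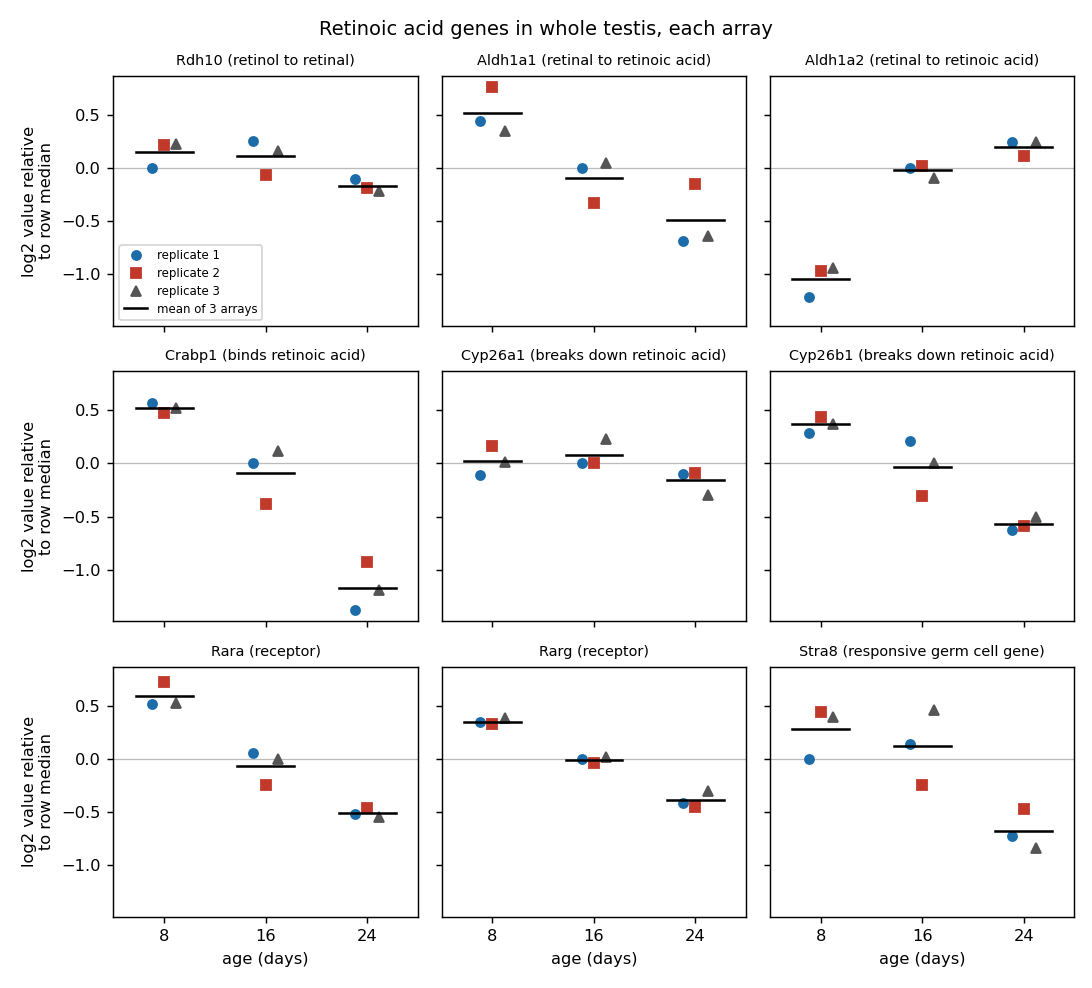
Log2 value relative to the row median (y axis) of the 9 retinoic acid genes at 8, 16 and 24 days (x axis), with a point for each array, shaped by replicate, and a bar at the mean of the 3 arrays of an age. Aldh1a2 is the gene with its lowest values at 8 days, and Crabp1 reaches the lowest 24-day mean, -1.17.

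1 array at 16 days stood apart for these genes. Replicate 2 of 16 days was the lowest of the 3 arrays of its age for 7 of the 9 members, and it was the lowest for 37.3% of all genes. It and replicate 1 of 8 days were also the arrays in which olfactory receptor genes, the odorant receptors of the nose, were high as a whole (median 0.17 in each, -0.05 to 0.03 in the others). The median of all genes was also high in replicate 1 of 8 days (0.12), but was 0.02 in replicate 2 of 16 days. Without replicate 2 of 16 days, 4 members were called between 8 and 16 days and 7 between 16 and 24 days. Without both of these arrays the counts were 3 and 7. Over all genes the shares called without replicate 2 of 16 days were 18.8% and 35.0%, and without both arrays 22.7% and 43.6%. Members' results that touch 16 days are also given without that array where the call changes.

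Aldh1a2, a retinal dehydrogenase known from spermatocytes and spermatids, was the member that rose. Its values were -1.21, -0.97 and -0.94 at 8 days, 0.00, 0.02 and -0.09 at 16 days, and 0.24, 0.11 and 0.24 at 24 days in replicates 1, 2 and 3. No 2 ages had overlapping arrays, with the gap between 8 and 16 days by far the widest. It rose by 1.02 ± 0.09 from 8 to 16 days, or 2.02-fold (adjusted p 4.84e-05), and by 1.24 ± 0.09 from 8 to 24 days (adjusted p 3.38e-06). By 16 days 82.3% of its difference between 8 and 24 days had been reached. The change from 16 to 24 days was 0.22 ± 0.09 (adjusted p 0.101, 95% interval 0.01 to 0.43). That rise was called in 3 of 19 alternatives. These were array weights, the fit without replicate 1 of 8 days, and the fit without both arrays that stood apart (0.24, adjusted p 0.0322). The later change was smaller than the earlier one by 0.80 ± 0.16 (adjusted p 0.0190 for the difference itself), a call that was lost without replicate 1 of 16 days (adjusted p 0.107) or replicate 2 of 16 days (adjusted p 0.0605). That test called 5.38% of all genes, 2.31% in this direction and 3.06% in the other.

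Aldh1a1, the retinal dehydrogenase known from the somatic cells of the testis, went the other way. Its values were 0.44, 0.76 and 0.35 at 8 days, 0.00, -0.33 and 0.05 at 16 days, and -0.69, -0.15 and -0.64 at 24 days. The 8-day arrays were above all others, while the arrays of 16 and 24 days overlapped. The gene fell by 0.61 ± 0.17 from 8 to 16 days (adjusted p 0.0251) and by 1.01 ± 0.17 from 8 to 24 days, or 2.02-fold (adjusted p 0.000589). Without replicate 2 of 16 days the first change was -0.49 with an adjusted p of 0.0877, and without replicate 2 of 8 days the call was also lost (adjusted p at most 0.0947). From 16 to 24 days it changed by -0.40 ± 0.17 (adjusted p 0.0960, 95% interval -0.78 to -0.02), and by -0.52 with a call (adjusted p 0.0466) without that 16-day array.

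The difference between the log2 values of Aldh1a2 and Aldh1a1 on the same array moved from -1.65, -1.73 and -1.29 at 8 days to 0.00, 0.36 and -0.14 at 16 days and 0.93, 0.26 and 0.88 at 24 days. Since both values are relative to the row's median, this shows unequal change and not which enzyme had more RNA. The mean difference was -1.56 ± 0.23 at 8 days and 0.69 ± 0.37 at 24 days (SD, n = 3), with no overlap between these ages.

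Rdh10, the retinol dehydrogenase that supplies retinal, moved little. Its values were 0.00, 0.22 and 0.23 at 8 days, 0.25, -0.07 and 0.16 at 16 days, and -0.10, -0.19 and -0.22 at 24 days. The arrays of 8 and 16 days overlapped, and the 24-day arrays lay just below all others. It fell by 0.32 ± 0.11 from 8 to 24 days, or 1.25-fold (adjusted p 0.0272), a call that ended with arrays centred on their medians (-0.20, adjusted p 0.216) or when replicate 2 or 3 of 8 days or of 24 days was left out (adjusted p up to 0.0864). From 8 to 16 days the change was -0.04 ± 0.11 (adjusted p 0.914, 95% interval -0.28 to 0.20). From 16 to 24 days it was -0.28 ± 0.11 (adjusted p 0.0686), and -0.37 with a call without replicate 2 of 16 days (adjusted p 0.0195).

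Crabp1, a cytoplasmic retinoic acid-binding protein known from spermatogonia, had the largest change of the 9. Its values were 0.57, 0.47 and 0.52 at 8 days, 0.00, -0.38 and 0.12 at 16 days, and -1.38, -0.93 and -1.19 at 24 days. No 2 ages overlapped, and the 24-day arrays lay far below the rest. It fell by 1.68 ± 0.15 from 8 to 24 days, or 3.21-fold (adjusted p 8.03e-06). In the first interval it fell by 0.60 ± 0.15 (adjusted p 0.0136, or -0.43 and adjusted p 0.0691 without both arrays that stood apart), and in the later interval it fell by 1.08 ± 0.15 (adjusted p 0.000684). By 16 days 35.9% of the whole difference had been reached, or 27.1% without replicate 2 of 16 days, but the 2 intervals did not differ by limma (-0.48 ± 0.25, adjusted p 0.427).

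Of the CYP26 hydroxylase genes, Cyp26b1 fell by limma and Cyp26a1 was not called. The value of Cyp26b1 minus that of Cyp26a1 on the same array was 0.34 ± 0.06 at 8 days and -0.41 ± 0.18 at 24 days (SD, n = 3). This difference in change between the genes was not tested. Cyp26b1, known from the peritubular cells around the tubules, had values of 0.29, 0.44 and 0.37 at 8 days, 0.21, -0.31 and 0.00 at 16 days, and -0.63, -0.59 and -0.50 at 24 days. Its 24-day arrays were tight and below all others, while the 16-day arrays were spread widely. It fell by 0.94 ± 0.13 from 8 to 24 days, or 1.92-fold (adjusted p 0.000131), and by 0.54 ± 0.13 from 16 to 24 days (adjusted p 0.00996). From 8 to 16 days it fell by 0.40 ± 0.13 (adjusted p 0.0439). That call held in 4 of 19 alternatives, whose adjusted p ranged from 0.0129 to 0.287, and the change was -0.26 (adjusted p 0.118) without replicate 2 of 16 days.

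Cyp26a1, whose window holds the direct repeat shown above, was not called in any comparison. Its values were -0.11, 0.16 and 0.01 at 8 days, 0.00, 0.00 and 0.23 at 16 days, and -0.10, -0.09 and -0.30 at 24 days. Both values of 0.00 were blank cells taken as 0, and no other member's row had more than 1 blank. The 24-day arrays were below those of 16 days but overlapped those of 8 days. The change from 8 to 24 days was -0.19 ± 0.11 (adjusted p 0.173, 95% interval -0.43 to 0.06), from 8 to 16 days 0.05 ± 0.11 (adjusted p 0.871, -0.19 to 0.29) and from 16 to 24 days -0.24 ± 0.11 (adjusted p 0.112, -0.48 to 0.00). With array weights it was called between 16 and 24 days (adjusted p 0.0394) and between 8 and 24 days (adjusted p 0.0232). Centred values do not show whether its probes were above background.

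The receptors Rara and Rarg fell in both intervals. Rara, the retinoic acid receptor known from Sertoli and germ cells, had values of 0.51, 0.72 and 0.52 at 8 days, 0.05, -0.25 and 0.00 at 16 days, and -0.52, -0.46 and -0.55 at 24 days. Rarg, the receptor known from spermatogonia, had values of 0.35, 0.33 and 0.38 at 8 days, 0.00, -0.04 and 0.02 at 16 days, and -0.42, -0.45 and -0.30 at 24 days. In neither gene did any ages overlap, and Rarg had the tightest arrays at 8 and 16 days of the 9 members (SD 0.02 and 0.03). Rara fell by 0.65 ± 0.10 and then by 0.44 ± 0.10 (adjusted p 0.00148 and 0.0101), for a fall of 1.10 ± 0.10 from 8 to 24 days, or 2.14-fold (adjusted p 1.36e-05). Rarg fell by 0.36 ± 0.08 and then by 0.38 ± 0.08 (adjusted p 0.00757 and 0.00527), for a fall of 0.74 ± 0.08, or 1.67-fold (adjusted p 2.55e-05). By 16 days 59.5% of the difference of Rara and 48.3% of that of Rarg had been reached. The fall of Rara from 16 to 24 days lost its call without replicate 1 of 16 days (adjusted p 0.0523), and its fall over the first interval kept an adjusted p of at most 0.00662 with any 1 array left out.

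Stra8, whose protein is needed for germ cells to enter meiosis, fell from 16 to 24 days. Its values were 0.00, 0.44 and 0.39 at 8 days, 0.14, -0.25 and 0.46 at 16 days, and -0.73, -0.47 and -0.84 at 24 days. The 8-day arrays lay within the range of the 16-day arrays, and the 24-day arrays were below all of them. It fell by 0.80 ± 0.19 from 16 to 24 days, or 1.74-fold (adjusted p 0.0100), and by 0.96 ± 0.19 from 8 to 24 days (adjusted p 0.00142). From 8 to 16 days the change was -0.16 ± 0.19 (adjusted p 0.686, 95% interval -0.58 to 0.25), and 0.02 without replicate 2 of 16 days. The intervals did not differ by limma (-0.64 ± 0.32, adjusted p 0.395), so that the fall was not shown to belong to the later interval more than to the first.

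**Figure D2:**
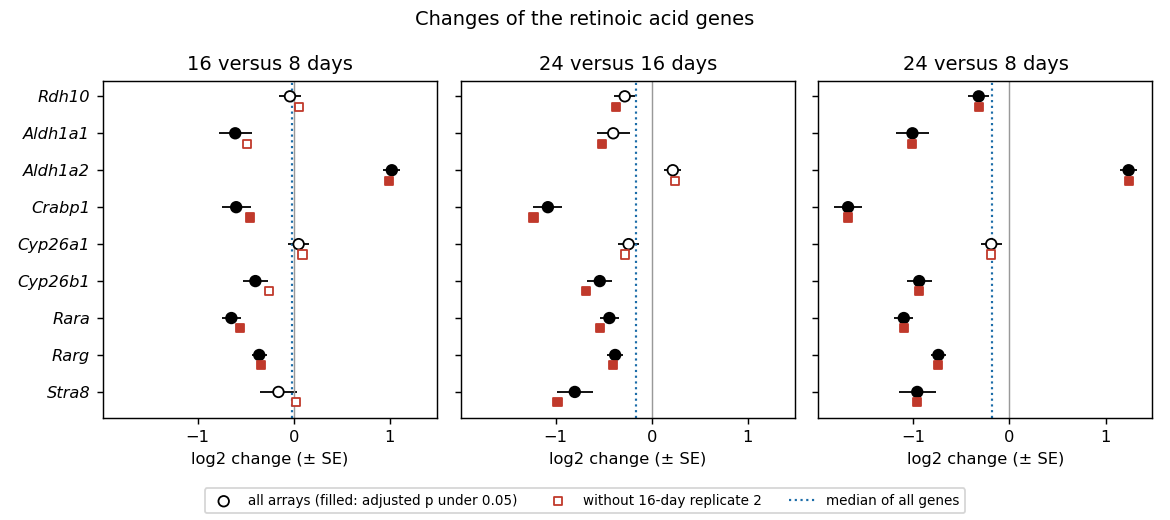
Log2 change (x axis, black points with the standard error) of the 9 retinoic acid genes in each comparison, filled where the adjusted p is under 0.05; red squares give the change without replicate 2 of 16 days and the dotted line is the median of all genes. From 8 to 24 days 7 genes lie on the side of a fall, called, and Aldh1a2 at 1.24; squares of the first interval lie closer to 0 than the points for Aldh1a1, Crabp1 and Cyp26b1.

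Over all 3 ages, limma's F test called 7 of the 9 members (all genes 50.7%), with Rdh10 at an adjusted p of 0.0523 and Cyp26a1 at 0.179. With arrays centred on their medians, the median change of all genes from 8 to 24 days moved from -0.18 to -0.06. In that setting 1 member rose and 6 fell, while 48.3% of all genes were called, against 54.4% without centring. The changes of Crabp1, Rara and Aldh1a1 were then -1.56, -0.98 and -0.89, and that of Aldh1a2 was 1.35.

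Genes whose pattern over the 9 arrays was most like that of each member, by Pearson's r, are given as a description, since all share the arrays and the ages and 50.7% of all genes differed by age. For Aldh1a2 they were Pomt1, Phf7 and Ropn1l (r = 0.999, 0.996 and 0.995), which had larger differences between 8 and 16 days (for Ropn1l from -3.26 to 0.09). For Aldh1a1 they were Abhd6, Mmd2 and Aldh18a1 (0.994, 0.992 and 0.991), and for Rdh10 Katna1, Nxt2 and Bcl6 (0.974, 0.969 and 0.968). Crabp1 was most like Dlg1, Pdcd6ip and Huwe1 (0.997, 0.996 and 0.995) and Cyp26b1 most like Aff1, Lpcat1 and Flii (0.998, 0.995 and 0.994). Rara was followed by Pqbp1, Gpx8 and Reep5 (0.997, 0.997 and 0.996), and Rarg by Daglb, Slc12a4 and Tmem150a (0.997, 0.997 and 0.995). The closest to Stra8 were Tbck, Rundc3b and Zbtb7c (0.991, 0.989 and 0.988), and to Cyp26a1 Med21, Dyrk2 and Usp9y (0.962, 0.958 and 0.929). Among the members themselves, Rara and Cyp26b1 had r = 0.96 and Rara and Aldh1a2 r = -0.94.

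Of 55 further genes of the pathway and of germ cell differentiation, 51 had a row of their own. From 8 to 24 days 10 of the 51 rose and 25 fell, with a median of -0.31 against -0.18 for all genes, of which 19.2% rose and 35.2% fell. From 8 to 16 days 5 rose and 15 fell (all genes 10.4% and 14.3%), and from 16 to 24 days 7 rose and 17 fell (all genes 13.2% and 20.1%). With each array centred on its median the last split was 10 and 9, with 24.0% of all genes called against 33.3%. The count of 24 calls in that interval dropped to 11 when replicate 1 of 16 days was left out, to 15 when it was replicate 3 of that age and to 13 when it was replicate 1 of 24 days. The share of all genes called dropped likewise, from 33.3% to 18.4%, 24.1% and 19.1%.

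Of the 9 measured genes of retinoid uptake, binding and storage, 3 rose and 3 fell from 8 to 24 days (all genes 19.2% and 35.2%). Lrat, the enzyme that makes retinyl esters, had values of -1.21, -1.22 and -1.52 at 8 days, 0.00, 0.27 and -0.04 at 16 days and 0.40, 0.33 and 0.30 at 24 days. It rose by 1.39 ± 0.12 from 8 to 16 days (adjusted p 2.11e-05) and changed by 0.27 ± 0.12 after that (adjusted p 0.1, or 0.0326 without replicate 2 of 16 days), a difference between the intervals of -1.13 ± 0.20 (adjusted p 0.00863). Dgat1, an acyltransferase that makes triglycerides and can also esterify retinol, rose by 0.92 ± 0.09 and then by 0.44 ± 0.09. Stra6, the membrane receptor for the retinol carrier RBP4, fell by 0.91 ± 0.10 from 8 to 24 days (adjusted p 3.53e-05). Rbp4 itself fell by 0.44 ± 0.11 (adjusted p 0.00541), a call that ended with centred arrays (adjusted p 0.0509). Lpl, a lipase of lipid uptake, fell by 1.39 ± 0.33 over the same span (adjusted p 0.00528), and the hormone-sensitive lipase Lipe rose by 0.55 ± 0.16 (adjusted p 0.0125, or 0.0506 without both arrays that stood apart).

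Among 17 enzymes that interconvert retinol and retinal or cleave carotene, 5 rose and 6 fell from 8 to 24 days. Of all genes 19.2% rose and 35.2% fell. Rdh11, a retinal reductase and retinol dehydrogenase, had values of -2.31, -1.58 and -1.97 at 8 days, 0.00, 0.44 and -0.07 at 16 days and 1.21, 0.93 and 1.15 at 24 days. No ages overlapped, and the rise of 3.05 ± 0.19, or 8.28-fold (adjusted p 7.71e-07), was the largest change among the 51 genes. It rose by 2.08 ± 0.19 in the first interval and by 0.97 ± 0.19 in the later one (adjusted p 4.02e-05 and 0.00447).

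The alcohol dehydrogenase Adh1, which can oxidise retinol, had values of 1.54, 1.86 and 1.68 at 8 days, -0.14, -0.17 and 0.08 at 16 days and -0.01, -0.09 and 0.00 at 24 days. It fell by 1.77 ± 0.11 by 16 days, or 3.41-fold (adjusted p 2.42e-06), and changed by 0.05 ± 0.11 after that (adjusted p 0.742), so that the intervals differed by 1.82 ± 0.18 (adjusted p 0.000304). Adh5 fell by 0.63 ± 0.13 in each interval, whereas Adh4 and Adh7 rose by 0.67 ± 0.11 and 0.52 ± 0.09 from 8 to 24 days (adjusted p 0.000627 and 0.000754). Dhrs3, a retinal reductase that retinoic acid is known to induce, fell by 0.78 ± 0.11 from 8 to 24 days (adjusted p 0.000135), and Dhrs7 and Rdh13 fell by 0.92 ± 0.16 and 0.89 ± 0.08. Dhrs4 fell by 0.56 ± 0.10 and then rose by 0.40 ± 0.10 (adjusted p 0.00833 for the difference between the intervals). Without replicate 1 of 16 days neither its later rise (adjusted p 0.0614) nor that difference (adjusted p 0.0628) was called. Bco2, a carotene-cleaving enzyme, rose by 0.32 ± 0.09 from 8 to 24 days (adjusted p 0.0120). Lrat, Adh1 and Dhrs4 were the 3 of the 51 genes whose intervals differed by limma (5.38% of all genes). On the 6 numbered arrays alone, Lrat (adjusted p 0.0765) and Dhrs4 (0.116) lost that call, and Adh1 kept it (0.0103). With a block for the replicate number these were 0.139, 0.203 and 0.0147.

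Among 3 further retinal dehydrogenases and 3 further genes of retinoic acid binding and breakdown, 1 each fell from 8 to 24 days. Aldh1a3, a further retinal dehydrogenase, fell by 0.36 ± 0.09 from 8 to 24 days (adjusted p 0.00807) and the binding protein gene Crabp2 fell by 0.45 ± 0.12 (adjusted p 0.0104). The change over the same span was -0.20 ± 0.12 for the receptor gene Rarb (adjusted p 0.200) and 0.01 ± 0.12 for Fabp5, a lipid-binding protein that also carries retinoic acid (adjusted p 0.922). Of 8 measured RXRs, RARs and cofactors, 6 fell from 8 to 24 days (all genes 35.2%). Rxra, the partner of the RARs, had values of 0.53, 0.69 and 0.69 at 8 days, 0.00, -0.56 and 0.00 at 16 days and -0.35, -0.81 and -0.58 at 24 days. It fell by 1.21 ± 0.17 from 8 to 24 days (adjusted p 0.000144), and by 0.82 ± 0.17 in the first interval (adjusted p 0.00532). The coactivator gene Ncoa1 and the corepressor gene Nrip1 fell by 0.44 ± 0.09 and 0.67 ± 0.09 over the same span (adjusted p 0.00205 and 0.000178). Rxrb fell by 0.36 ± 0.10 (adjusted p 0.0119), a call that ended with centred arrays (adjusted p 0.0862). The calls of Ncoa2 and Ncoa3 ended likewise (adjusted p 0.0329 and 0.00657, or 0.182 and 0.0843 with centred arrays).

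Of 11 measured germ cell genes around differentiation and meiotic entry, 2 rose and 8 fell from 8 to 24 days (all genes 19.2% and 35.2%). Lin28a, an RNA-binding protein of undifferentiated germ cells, fell by 1.36 ± 0.08, the spermatogonial regulator Dmrt1 fell by 1.55 ± 0.16 and the cyclin Ccnd2 fell by 1.81 ± 0.14. Kit, the receptor of differentiating spermatogonia, had values of 0.44, 0.31 and 0.65 at 8 days, 0.00, -0.37 and 0.31 at 16 days and -0.83, -0.52 and -0.68 at 24 days. Its 24-day arrays were below all others. It changed by -0.49 ± 0.17 in the first interval (adjusted p 0.0602) and fell by 0.66 ± 0.17 in the later one (adjusted p 0.0146, up to 0.0622 with 1 array left out, the call being lost without replicate 1 of 16 or of 24 days). Sohlh1, a transcription factor of spermatogonia, fell by 0.50 ± 0.08 and then by 0.63 ± 0.08. Rec8, a meiotic cohesin subunit that retinoic acid is known to induce, was among the genes that rose, by 0.50 ± 0.15 in the later interval (adjusted p 0.0267), with 24-day values of 0.71, 0.20 and 0.13. That call was lost without replicate 1 of 24 days and without replicate 1 or 3 of 16 days (adjusted p up to 0.091). Dmrtb1, a regulator of the step from spermatogonium to meiosis, rose by 0.53 ± 0.13 from 8 to 24 days (adjusted p 0.00706).

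**Figure D3:**
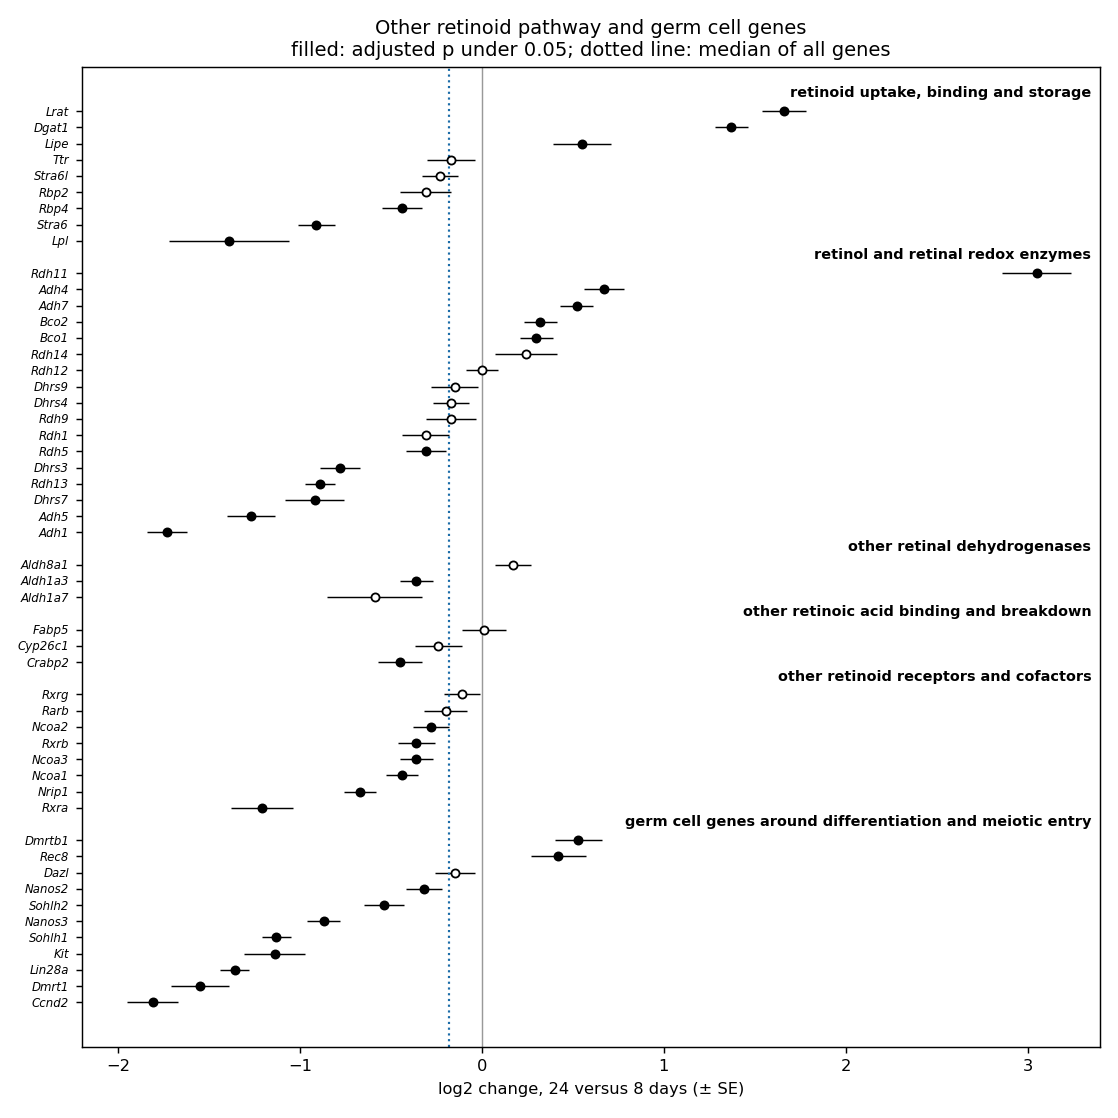
Log2 change from 8 to 24 days (x axis, points with the standard error, filled where the adjusted p is under 0.05) of 51 further genes of retinoid metabolism, retinoid receptors and germ cell differentiation, in 6 groups. Rdh11, at 3.05, stands to the right of all others, and the dotted line at -0.18 is the median of all genes.

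Markers of several testis cell types fell from 8 to 24 days, as did 7 of the 9 members and 35.2% of all genes. The mean over 6 spermatogonial genes was 0.55 to 0.63 at 8 days, -0.32 to 0.07 at 16 days and -0.82 to -0.70 at 24 days, and 6 of 6 fell from 8 to 24 days. For 8 Sertoli cell genes the mean was 0.56 to 0.81, then -0.22 to 0.11 and then -0.66 to -0.39, and 7 of 8 fell. The 5 Leydig cell genes all fell by 16 days (mean 1.32 to 1.72 at 8 days, -0.87 to -0.33 at 16 days). From 16 to 24 days 1 Leydig gene rose and 1 fell, and their median change was 0.48. The 5 peritubular genes went from 0.30 to 0.39 at 8 days to -0.52 to -0.23 at 24 days. Replicate 2 of 16 days was the lowest 16-day array for the spermatogonial, Sertoli, peritubular and endothelial means, as it was for 7 of the 9 members. It was the highest 16-day array for the Leydig, spermatocyte and spermatid means (-0.33, 0.28 and -0.01).

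Among the germ cell lists, the spermatocyte genes rose mainly from 8 to 16 days, as Aldh1a2 did. The spermatid genes rose only after 16 days, and the spermatogonial genes fell. The mean over 6 spermatocyte genes was -3.23 to -3.01 at 8 days, -0.02 to 0.28 at 16 days and 0.41 to 0.59 at 24 days, and that of 6 spermatid genes was -0.27 to 0.00 at 8 days, -0.31 to -0.01 at 16 days and 3.55 to 4.78 at 24 days. The mean of 5 macrophage genes went from 0.13 to 0.39 at 8 days to -0.23 to -0.09 at 24 days, with 4 of 5 called, and that of 4 endothelial genes from 0.57 to 0.79 to -0.49 to -0.28, with 4 of 4 called. Neither the 1 measured red blood cell gene nor the 2 measured genes of epididymis epithelium, a tissue next to the testis, was called. Values relative to the row median show the age order of these testis markers and not their level. The part of any of these lists in the changes of the members was not tested.

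**Figure D4:**
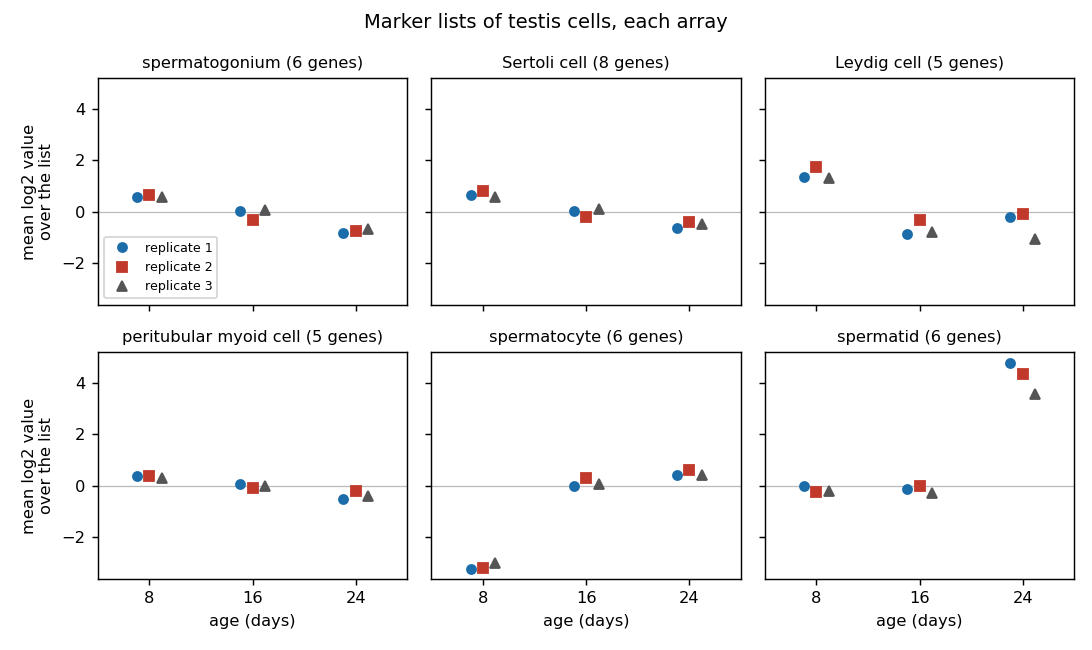
Mean log2 value relative to the row median over each list of marker genes (y axis) at 8, 16 and 24 days (x axis), with a point for each array. The spermatocyte mean lies between -3.23 and -3.01 at 8 days, and the spermatid mean between 3.55 and 4.78 at 24 days.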

How the data were processed

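Biotin-labelled cDNA from total testis RNA was hybridised to Affymetrix arrays, per the labels' protocols. The authors deposited a table of 28815 rows, read from its values (-6.07 to 6.05) as log2 differences from the row median. Its background correction, normalization and summary are not given in the sources used here. Blanks, present in every row, were taken as 0, which puts every row median at 0. Genes were named from a GEO platform table. The 21780 rows with 1 symbol were averaged per gene to 19935 genes, with rows of several symbols (1605) or none (5430) left out.

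limma 3.58.1 (R 4.3.3, lmFit and eBayes) fitted a mean per age on all 9 arrays and all genes, with 6 residual and 3.82 prior degrees of freedom. Tests were 2-sided with Benjamini-Hochberg adjustment over all genes and a threshold of 0.05. The number of arrays limits the precision. The test was checked on simulated data with independent noise of equal spread at each age and no array that stood apart. The alternatives were array centring, a fit of all rows, blanks left missing, robust eBayes, array weights, only the ages compared, rows with at most 1 blank, a replicate block, a 2-fold minimum, and arrays left out. The 6 numbered arrays without a block were added after seeing the data. Named genes are the 9 members, up to 3 called genes per list, direction and comparison, the 3 genes most like each member, and the marker lists. A few outside these (Kit, Dhrs3, Rarb, Fabp5, Sohlh1, Ncoa2, Ncoa3) were chosen after their values were seen. The members and lists were chosen with earlier results of these data known. Sequences are RefSeq's, GRCm38.p6. Tables and figures used pandas 2.3.3 and matplotlib 3.10.9 in Python 3.11.15.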

Additional observations from a re-analysis of the deposited data

Results flagged for a closer look

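For Aldh1a2 the change from 16 to 24 days minus the change from 8 to 16 days was -0.80 ± 0.16 (limma, adjusted p 0.0190, 3 arrays per age), so that its intervals differed by the test of the difference itself. All 3 arrays of 16 days were above all 3 of 8 days. Over its alternatives the adjusted p ranged from 0.0173 to 0.258, and the difference stayed below 0 in each of them.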

How the results depend on the processing

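Of the members' changes from 8 to 24 days, those of Aldh1a1, Aldh1a2, Crabp1, Cyp26b1, Rara, Rarg and Stra8 kept their direction and call in the 19 alternatives other than the 2-fold minimum. With a 2-fold minimum 1, 1 and 4 members were called for 16 with 8, 24 with 16 and 24 with 8 days, and 5, 0 and 12 of the 51 pathway genes (by limma, 20, 24 and 35 without that minimum). The share of all genes under the 2-fold minimum was not taken, so these counts have no background beside them. With array weights 9 members were called between 16 and 24 days (39.3% of all genes), and without both arrays in which olfactory receptor genes were high 3 between 8 and 16 days. The difference between intervals, called for 1 member, was called for 0 with centred arrays (Aldh1a2 adjusted p 0.0627), with blanks missing (0.094), and on the 6 numbered arrays with the replicate block (0.258) or without it (0.145).

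The replicate block on the 6 numbered arrays gave 2 and 1 called members in the first and later interval and 8, 1 and 23 pathway genes in the 3 comparisons. Of all genes, 9.89%, 6.49% and 38.0% were then called, against 24.7%, 33.3% and 54.4% with all arrays. The same arrays without a block gave 2 and 1 members and 11 and 4 pathway genes in the 2 intervals (all genes 12.5% and 7.91%). Same-numbered arrays did not deviate together throughout (correlations of deviations -0.461 to 0.197). With so few arrays this cannot decide whether the numbers pair the arrays, and the labels do not say.

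Leaving out 1 array at a time gave 4 to 6, 4 to 7 and 7 to 8 called members in the 3 comparisons, 15 to 20, 11 to 29 and 31 to 35 pathway genes, 7 to 8 members in the F test and 0 to 1 in the difference between intervals. Of all genes, 18.8% to 25.5%, 18.4% to 40.5% and 46.9% to 56.4% were called in the 3 comparisons. Signs turned only in uncalled values, and with 1 array left out these ran from -0.12 to 0.05 for Rdh10, -0.02 to 0.12 for Cyp26a1 and -0.33 to 0.02 for Stra8 (8 to 16 days), and from -0.03 to 0.36 for Aldh1a1 and -0.42 to 0.10 for Cyp26b1 (difference between intervals). From 8 to 16 days Cyp26a1 was -0.03 on the 6 numbered arrays with or without the block, -0.01 without replicate 1 of 8 days and -0.02 without replicate 3 of 16 days, and Rdh10 and Stra8 were 0.05 and 0.02 without replicate 2 of 16 days. The difference between intervals was 0.03 for Rarg with centred arrays, 0.00 without replicate 3 of 16 days and 0.01 without replicate 2 of 24 days, -0.07 for Aldh1a1 with array weights and -0.03 without replicate 2 of 16 days, and 0.10 for Cyp26b1 without replicate 1 of 16 days. The cause was not tested, except that the 2-fold minimum calls fewer genes by construction.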
